A study of Mus musculus with 6 samples.

Results

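Aminoacyl-tRNA synthetases are the enzymes that join each amino acid to its transfer RNA. The genes described here are 36 mouse synthetase genes, 20 for the cytosolic enzymes and 16 for the mitochondrial ones, chosen by name from a list of the family. Of these, 35 were measured, 19 cytosolic and 16 mitochondrial, among 20416 genes on the arrays. Dars, the cytosolic aspartate enzyme, had no probe set that named it alone. A probe set is a group of array probes read as 1 value, and a gene's value was the mean log2 intensity of the probe sets whose annotation named that gene only. The measured members had 624 probe sets, from 2 for Pars2 to 33 for Eprs and Lars (median 16). All 35 were bright enough to pass the filter on dim genes, and 15312 genes were tested.

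The arrays came from hepatocytes of adult C57BL/6 mice. The miR-143DOX group (3 mice) carried a doxycycline-inducible allele of the microRNA miR-143, and the control group (3 mice) were wildtype littermates. Animals of both groups drank doxycycline at 4 mg/ml with 10% sucrose for 8 days, so the drug was shared and the transgene was not. Hepatocytes were collected by collagenase perfusion and frozen, and 1 Affymetrix array was hybridized per mouse. The labels do not name the driver of the inducible allele, and miR-143 was not looked up on the arrays. Between pairs of arrays Pearson's r over probe sets lay between 0.936 and 0.954. Hepatocyte genes were bright, with Alb (albumin) at a mean of 14.4 in both groups. Markers of sinusoidal endothelium and of Kupffer cells were also above the dim level of 5.06, with list means that reached 7.81 and 7.33 on their brightest array. In bulk samples, fewer cells of a type and less RNA per cell cannot be told apart.

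Cytosolic synthetases charge transfer RNAs for translation on cytosolic ribosomes, and some of them sit together in a multisynthetase complex held by scaffold proteins. A separate set of nuclear genes encodes the mitochondrial enzymes, while Gars and Kars each serve both compartments from a single gene. When amino acids run short, uncharged transfer RNA activates the kinase GCN2 (Eif2ak4), eIF2alpha is phosphorylated, and translation of the transcription factor ATF4 rises. ATF4 in turn activates many cytosolic synthetase genes together with genes of amino acid synthesis and uptake, through sites shared with C/EBP factors. Endoplasmic reticulum (ER) stress reaches ATF4 through another eIF2alpha kinase, PERK (Eif2ak3). In the liver these enzymes serve the high output of plasma proteins.

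RefSeq promoters (GRCm38.p6, from 250 bases before to 50 after each annotated start) were used for 26 of the 36 genes. Aars, Cars, Hars, Hars2, Lars, Nars, Pars2, Rars, Vars and Wars were not used here. The C/EBP-ATF element was searched as TGATGNAA on both strands and was found in 4 of 12 cytosolic and 0 of 14 mitochondrial promoters, against 3.97% of all 32851 promoters. The other 8 cytosolic promoters did not hold it, and the difference between the compartments was not tested. The matched windows are shown because this is the element through which ATF4 is known to act. Each reads 5′ to 3′ on the gene's strand, with the matched letters in capitals.
Gars: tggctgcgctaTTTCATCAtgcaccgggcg
Iars: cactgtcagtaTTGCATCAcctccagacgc
Tars: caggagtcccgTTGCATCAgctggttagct
Yars: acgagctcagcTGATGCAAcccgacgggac

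These promoters lie at chr6:55037751-55038050 (plus strand) for Gars, chr13:49681880-49682179 (plus strand) for Iars, chr15:11399609-11399908 (minus strand) for Tars and chr4:129189653-129189952 (plus strand) for Yars. Counted from the annotated start, the matches of Gars and Tars began at -30 and -15, and those of Iars and Yars at 7 and 3. In 3 of the 4 genes (Iars, Tars and Yars) a match read TTGCATCA or its reverse complement, the form with a C at the open position. A match is a description of letters, and binding of ATF4 was not measured here.

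A site for NRF1, a transcription factor of nuclear genes for mitochondrial proteins, was searched as GCATGCGC on both strands. It was found in 3 of 14 mitochondrial and 0 of 12 cytosolic promoters, against 2.71% of all promoters, and this difference was not tested either. The windows of the 3 genes are shown for comparison with the cytosolic ones, and Vars2 has 2 matches.
Rars2: cggccccgtgtGCATGCGCactccacactt
Vars2: gagtcttttacGCATGCGCctgcgtgtccc
Vars2: tccccgcccacGCATGCGCgcgcacctcgc
Wars2: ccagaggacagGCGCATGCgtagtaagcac

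These lie in promoters at chr4:34614707-34615006 (plus strand) for Rars2, chr17:35667543-35667842 (minus strand) for Vars2 and chr3:99140840-99141139 (plus strand) for Wars2. The E-box CACGTG, bound by MYC and MAX, was found in Farsb, Iars, Tars and Ears2, which is 3 of 12 cytosolic and 1 of 14 mitochondrial promoters, against 7.15% of all. It reads the same on both strands, and none of its matches overlapped the other motifs. Iars and Tars therefore held both the C/EBP-ATF element and the E-box. The promoter of Tars is printed whole, because Tars varied more between animals than any other member, with both motifs in capitals.
Tars: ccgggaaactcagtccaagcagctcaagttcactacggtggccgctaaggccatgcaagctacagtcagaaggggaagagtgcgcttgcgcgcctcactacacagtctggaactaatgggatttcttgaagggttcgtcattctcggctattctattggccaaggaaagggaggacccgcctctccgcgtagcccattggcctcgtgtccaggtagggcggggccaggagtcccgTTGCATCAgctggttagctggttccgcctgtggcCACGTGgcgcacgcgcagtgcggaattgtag

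The comparison of miR-143DOX with control asks whether synthetase transcripts differ after induction of miR-143. No member passed at a false discovery rate of 5% in limma's moderated test, 0 of 35, and neither did any of the 15312 genes (0% called). At an unadjusted p under 0.05 the members also numbered 0 in either direction, where 1.68% of all genes were lower and 1.38% higher. Differences, given as miR-143DOX minus control in log2, ran from -0.27 for Ears2 to 0.21 for Sars and Hars. Of the 35 members 17 lay below 0, which is 48.6%, and 47.6% of all genes did. The median was 0.001 over the members and 0.008 over all genes. Each member's 95% interval lay within 1.5-fold either way, with a lowest bound of -0.58 for Nars2 and a highest of 0.55 for Hars. This held for 34 members with a median polish over probe sets, where Tars reached 0.95, and for 26 with the median over probe sets.

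**Figure D1:**
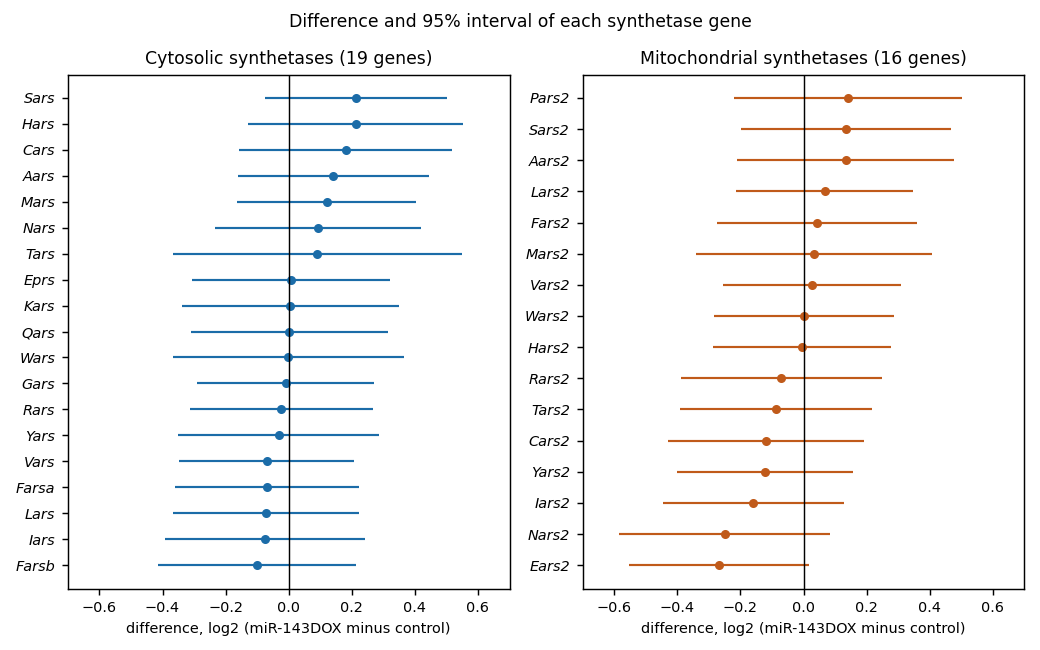
Difference of each synthetase gene (log2, miR-143DOX minus control, n = 3 mice each) as a point with its 95% interval from limma as a line, cytosolic genes on the left and mitochondrial genes on the right. Each of the 35 intervals includes 0.

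Among the cytosolic enzymes the median difference was 0.002, with 9 genes below 0 and 10 above. Sars, which charges serine, was the single cytosolic gene whose groups did not overlap. It read 9.22, 9.02 and 9.08 in miR-143DOX replicates 1, 2 and 3 against 8.94, 8.96 and 8.78 in control replicates 1, 2 and 3. The lowest miR-143DOX array thus stood just above the highest control array. The difference was 0.21 (standard error 0.13, limma adjusted p = 1), and 11 of its 12 probe sets lay above 0.

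Hars, the histidine enzyme, measured 7.77, 7.40 and 7.38 in miR-143DOX against 7.50, 7.26 and 7.14 in control. The groups overlapped, with miR-143DOX replicate 1 above the other arrays, and the difference was 0.21 (standard error 0.16, limma adjusted p = 1). Without that array it was 0.09, and without control replicate 3 it was 0.13. Cars, the cysteine enzyme, measured 8.14, 7.70 and 7.72 in miR-143DOX against 7.59, 7.62 and 7.81 in control. Again miR-143DOX replicate 1 stood highest, and the difference of 0.18 was 0.04 without that array. Aars, the alanine enzyme, measured 9.42, 9.30 and 9.65 against 9.36, 9.33 and 9.25, with miR-143DOX replicate 3 highest. Its difference of 0.14 was 0.04 without that array.

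The multisynthetase complex joins enzymes for several amino acids. Its 7 measured genes (Eprs, Iars, Kars, Lars, Mars, Qars and Rars) had a median difference of 0.002, between -0.07 and 0.12, and 3 of them lay below 0. Mars, the methionine enzyme, was the highest, at 8.63, 8.50 and 8.57 in miR-143DOX against 8.43, 8.56 and 8.36 in control, and its groups overlapped. Eprs, a fused enzyme for glutamate and proline, differed by 0.01, Kars (lysine) by 0.01 and Qars (glutamine) by 0.002. Among the 12 cytosolic genes outside the complex the median was 0.045, with 6 below 0.

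Textbook structure divides synthetases into classes I and II by the fold of the catalytic domain, a grouping applied here after the values were seen. Eprs, which joins a class I glutamate enzyme to a class II proline enzyme, was counted in class I only. The 10 cytosolic class I genes so counted had a median difference of -0.01, from -0.07 for Iars to 0.18 for Cars. The 9 class II genes had a median of 0.09, from -0.10 for Farsb to 0.21 for Sars. Farsa and Farsb, the alpha and beta subunits of the same phenylalanine enzyme, differed by -0.07 and -0.10, with overlapping groups for both. The remaining cytosolic genes were close to 0, with Gars (glycine) at -0.01, Wars (tryptophan) at -0.001 and Yars (tyrosine) at -0.03. Nars (asparagine) differed by 0.09 and Vars (valine) by -0.07. The 95% interval of each of these genes included 0.

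Among the 16 mitochondrial enzymes the median difference was -0.002, with 8 genes on each side of 0. Ears2, which charges mitochondrial glutamate transfer RNA, had the difference farthest from 0 of all members. It read 6.45, 6.56 and 6.47 in miR-143DOX replicates 1, 2 and 3 against 6.64, 6.88 and 6.76 in control. Every miR-143DOX array lay below every control array. The difference was -0.27 (standard error 0.13, 95% interval -0.55 to 0.02, limma adjusted p = 1). Its 10 probe sets did not all share that direction. They ran from -0.76 to 0.19 with 6 below 0, and the brightest of them gave 0.03.

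Yars2, the mitochondrial tyrosine enzyme, was the other gene with separate groups, at 7.46, 7.33 and 7.53 in miR-143DOX against 7.58, 7.54 and 7.57 in control. Control replicate 2 and miR-143DOX replicate 3 stood only narrowly apart, and the difference was -0.12 (standard error 0.13, limma adjusted p = 1). In all, the groups did not overlap with miR-143DOX lower for 2 of 35 members, or 5.71%, beside 3.73% of all genes. With miR-143DOX higher it was 1 of 35, or 2.86%, beside 3.4% of all genes.

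Nars2, the mitochondrial asparagine enzyme, measured 8.10, 7.87 and 8.23 in miR-143DOX against 8.54, 8.19 and 8.21 in control. Control replicate 1 was the highest array and miR-143DOX replicate 2 the lowest, and the groups overlapped at a difference of -0.25 (standard error 0.15, limma adjusted p = 1). It was -0.14 with control replicate 1 left out, and leaving out miR-143DOX replicate 2 gave -0.15. Of its 15 probe sets 13 lay below 0. Iars2, the isoleucine enzyme, differed by -0.16, with 17 of 24 probe sets below 0. Among these, a probe set read 10.77 in control replicate 1 and between 7.86 and 8.19 on the other arrays. Without control replicate 1 the difference of Iars2 was also -0.16. On the other side lay Pars2 (proline) at 0.14 from 2 probe sets, Sars2 (serine) at 0.13 and Aars2 (alanine) at 0.13. Cars2 (cysteine) differed by -0.12, Tars2 (threonine) by -0.09 and Rars2 (arginine) by -0.07. Lars2 (leucine) at 0.07, Fars2 (phenylalanine) at 0.04, Mars2 (methionine) at 0.03 and Vars2 (valine) at 0.03 lay above 0, and Hars2 (histidine) and Wars2 (tryptophan) were at -0.01 and 0.001.

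Enzymes for the same amino acid in the cytosol and in mitochondria could be set side by side for 16 amino acids, in 17 pairs. Fars2 was set against both Farsa and Farsb, and Eprs against both Ears2 and Pars2. The signs were the same in 7 pairs and opposite in 10, with Fars2 counted in 2 of the latter. Some of these signs rest on values near 0, such as -0.001 for Wars against 0.001 for Wars2, and 0.01 for Eprs. The serine enzymes were both above 0 (Sars 0.21, Sars2 0.13), as were the alanine enzymes (Aars 0.14, Aars2 0.13). Asparagine gave 0.09 for Nars and -0.25 for Nars2, cysteine 0.18 for Cars and -0.12 for Cars2, and glutamate 0.01 for Eprs and -0.27 for Ears2. The differences within pairs were not tested, and no gene of a pair passed its own test.

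The 4 genes with a C/EBP-ATF element in the promoter did not share a sign, but all 4 differences were smaller than their standard errors. Tars differed by 0.09 (standard error 0.21), and Gars, Iars and Yars by -0.01, -0.07 and -0.03. Tars was -0.10 with either control replicate 1 or miR-143DOX replicate 1 left out. Each of the 4 genes changed sign in some of the other settings, so their signs are not settled. The 3 mitochondrial genes with an NRF1 site lay between -0.07 (Rars2) and 0.03 (Vars2).

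The members varied somewhat less between animals of a group than genes in general. The median residual SD was 0.151 over the members and 0.177 over all genes tested, and 10 of 35 members were above the latter. The members were also brighter, at a median level percentile of 79 beside 62.5 for all genes tested. SDs were not compared at equal brightness or number of probe sets. Vars was the steadiest, at an SD of 0.07, and Tars the least steady, at 0.36. On the mean deviation of the 19 cytosolic genes from their own means, miR-143DOX replicate 1 was highest at 0.137, and miR-143DOX replicate 2 and control replicate 3 were lowest at -0.103 and -0.096. Control replicates 1 and 2 stood at 0.002 and 0.045 and miR-143DOX replicate 3 at 0.014, so the groups overlapped and the span within miR-143DOX exceeded that within control. Of the 19 genes, 8 were highest on miR-143DOX replicate 1. Control replicate 3 and miR-143DOX replicate 2 were each the lowest array for 7 of them.

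The 16 mitochondrial genes varied less as a list. Their mean deviations were 0.080, -0.009 and -0.023 in control and 0.000, -0.020 and -0.027 in miR-143DOX, with control replicate 1 apart from the rest. Marker lists also differed between miR-143DOX replicates 1 and 2, the highest and lowest arrays of the cytosolic list. The mean deviation on these was 0.189 and -0.302 for 10 sinusoidal endothelium markers, 0.178 and -0.152 for 11 of 12 Kupffer cell markers, and 0.095 and -0.072 for 10 hepatocyte markers. On control replicate 3, also low for the cytosolic list, endothelium markers stood at 0.140, Kupffer cell markers at 0.016 and hepatocyte markers at -0.040. Between the groups, 9 of the 10 endothelial markers lay below 0 (median -0.11), 8 of the 11 Kupffer cell markers above 0 (median 0.07) and 7 of the 10 hepatocyte markers above 0 (median 0.02). The part of cell composition in the spread of the synthetases was not tested.

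**Figure D2:**
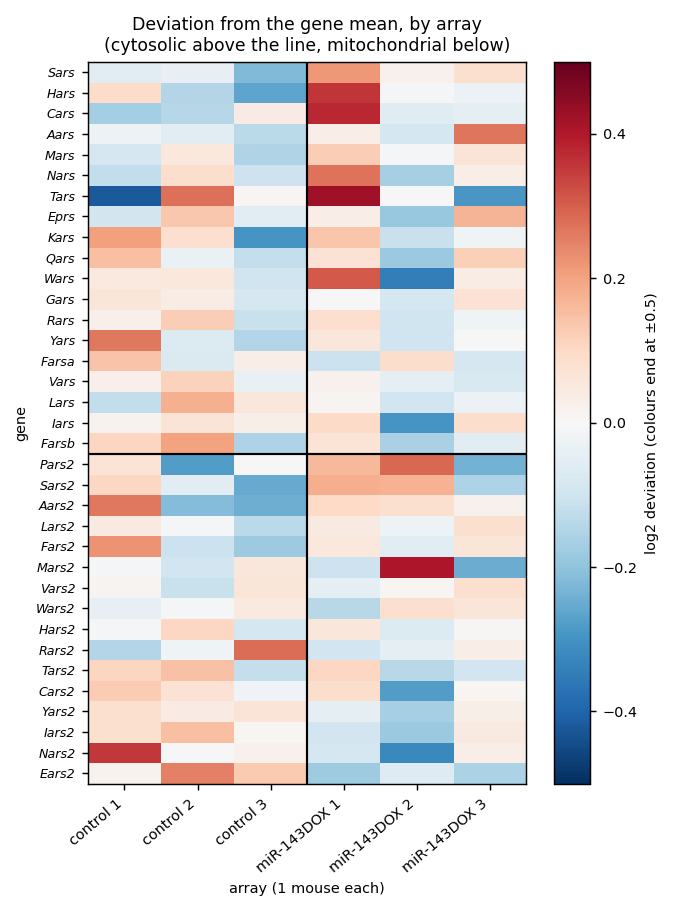
Deviation of each synthetase gene (rows) from its mean over the 6 arrays (columns, 1 mouse each), as colour on a log2 scale, with cytosolic genes above the horizontal line. The column of miR-143DOX replicate 1 is above 0 for 18 of 19 cytosolic genes (mean 0.137), and Tars in control replicate 1 is the lowest cell among them.

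Tars, the cytosolic threonine enzyme, had the widest range over the arrays of all members. It varied within both groups, with an SD of 0.36 in miR-143DOX and 0.35 in control. The mean of its 19 probe sets was 10.11, 9.68 and 9.39 in miR-143DOX and 9.26, 9.96 and 9.69 in control. For control replicate 1 the gene-level mean hid a larger gap, because a single probe set ran opposite to the rest. It read 14.27 in control replicate 1 and between 6.94 and 8.30 on the other 5 arrays. The deposited value was used as it stands and its accuracy could not be checked, so the difference from all 19 probe sets depends on it. Control replicate 1 was the lowest array in 16 of the 19 probe sets and the highest in that 1.

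Without that probe set, a choice made after seeing the values, Tars read 10.28, 9.83 and 9.52 in miR-143DOX and 8.98, 10.08 and 9.77 in control. Control replicate 1 then stood 0.91 below the mean of the other 5 arrays, a 1.88-fold lower level, while those 5 ran from 9.52 to 10.28. The range of Tars over the arrays was then 1.30, in place of 0.84 from all 19 probe sets. Any other member reached at most 0.67, and 1.56% of all genes tested exceeded 1.30. The other genes kept all their probe sets, so the range of 1.30 is not on equal terms with theirs. The difference between groups was 0.27 (standard error 0.26, limma adjusted p = 1), compared with 0.09 from all 19 probe sets, and -0.10 from all 19 without control replicate 1. The mean deviation over the cytosolic genes on that array was 0.002.

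**Figure D3:**
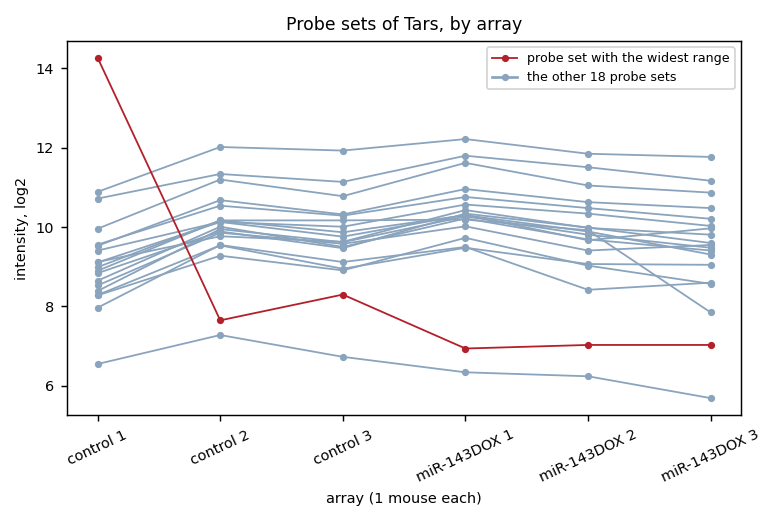
Log2 intensity of the 19 probe sets of Tars on each of the 6 arrays, with lines joining the values of a probe set. The red probe set reads 14.27 in control replicate 1, where 16 of the others have their lowest value.

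Single probe sets of the members were tested in the same way. Their shares lay near those of all probe sets, except for a smaller share higher at an unadjusted p under 0.05. Groups were separate with miR-143DOX lower in 30 of the 602 member probe sets above the dim level of 5.07 (4.98%), beside 4.54% of all 176154 such probe sets. They were separate with miR-143DOX higher in 22 (3.65%), beside 4.31% of all. None of the 602 passed 5% FDR in limma over all probe sets (0% called), and at an unadjusted p under 0.05 there were 11 lower (1.83%, beside 2.19% of all) and 5 higher (0.831%, beside 1.99% of all).

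Some member probe sets with wide differences are given as a description, and they are not all of the widest. After the Tars probe set above (-3.07) and the Lars one below, the widest lay above 0. They belonged to Cars (1.66), Hars (1.52), Aars (1.18) and Vars2 (1.14), and those of Hars and Aars were too dim to be tested. A probe set of Lars, the leucine enzyme, read 3.03, 2.97 and 2.46 in miR-143DOX against 5.61, 5.06 and 5.72 in control, a difference of -2.64. The groups lay far apart, but the probe set was below the dim level and was not tested, and the other 32 probe sets of Lars had a mean difference of 0.008. A probe set of Vars read 6.29, 5.76 and 6.36 against 7.45, 6.63 and 7.61 (difference -1.09, standard error 0.32). One of Iars ran the other way, at 6.65, 6.85 and 7.21 against 5.91, 5.86 and 6.02 (difference 0.98, standard error 0.22). One of Rars, the arginine enzyme, read 6.62, 6.58 and 6.87 against 7.49, 7.58 and 7.49 (difference -0.83, standard error 0.19). These were chosen after their values were seen, and whether they mark an exon or transcript form was not tested.

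Genes around the synthetases in the pathway were taken from written lists, and 0 genes of these lists passed 5% FDR over all genes. Of the complex's scaffold genes, Aimp1, Aimp2 and Eef1e1 differed by 0.16, -0.02 and -0.13, and Aimp1 was -0.02 without control replicate 3. Of 8 measured genes for other charging steps 3 lay below 0 (median 0.03). Among these, Mtfmt, which formylates the mitochondrial initiator, stood at -0.19 (-0.05 without control replicate 1), and Sepsecs, which makes selenocysteine transfer RNA, at -0.12. Aarsd1, an editing enzyme for mischarged alanine transfer RNA, stood at 0.11, and Gatc, of the mitochondrial glutamine route, at 0.10.

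Elongation factors act in the part of translation that uses charged transfer RNA, and 6 of the 7 lay above 0 with a median of 0.05. Eef1g, the gamma subunit of the exchange factor, read 8.67, 8.92 and 8.63 in miR-143DOX against 8.39, 8.48 and 7.78 in control. The groups did not overlap, control replicate 3 was lowest, and the difference was 0.52 (standard error 0.19, limma adjusted p = 1). It was 0.31 without control replicate 3, and the gene's 2 probe sets gave 0.08 and 0.97. The others lay between -0.04 and 0.11, with Eef1a1 at 0.11, Tsfm at 0.10 and Eef2 at 0.05.

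The list of eIF2alpha kinases and the ATF4 branch showed no common direction as a whole. Of its 12 genes 8 lay below 0 and 4 above, with a median of -0.06 and none at an unadjusted p under 0.05 in limma. Its kinase genes all lay below 0, from -0.24 for Eif2ak1 to -0.01 for Eif2ak2. Atf4 differed by -0.07 and Eif2ak4 by -0.07. Ddit3, the stress factor CHOP, stood at -0.33, the heme-regulated kinase gene Eif2ak1 at -0.24, Cebpg at 0.25 and the pseudokinase gene Trib3 at 0.34. Trib3 was 0.12 without control replicate 3, and Eif2ak1 was -0.16 without control replicate 1. Of 17 tested ATF4 targets for amino acid supply 9 lay below 0 (median -0.02), and of 9 other ATF4 targets 2 did (median 0.10). Nupr1 stood at 0.26, Herpud1 at -0.34 (-0.18 without miR-143DOX replicate 2), Chac1 at 0.19 (0.05 without it) and Fgf21 at 0.13 in the latter list. With miR-143DOX higher, groups did not overlap for Cebpg and Nupr1, each the 1 such gene of its list, beside 3.4% of all genes.

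Asns, the asparagine synthetase gene and a common readout of ATF4, read 6.41, 6.12 and 8.13 in miR-143DOX against 7.89, 7.58 and 6.99 in control. In miR-143DOX replicates 1 and 2 it lay below every control array and in replicate 3 above them all, and the difference was -0.60 with a standard error of 0.42. It lay between -1.22 and -0.22 with each array left out. Cbs, a transsulfuration enzyme, read 10.71, 10.80 and 10.58 against 10.36, 10.37 and 10.35 and was separate between groups (difference 0.34, standard error 0.13, limma adjusted p = 1). Slc3a2 (-0.21) and Mthfd2 (0.17) overlapped.

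ER chaperones and folding enzymes, which help secreted proteins fold, were measured as the other ER stress readout. All 14 lay below 0 with a median of -0.31, where 47.6% of all genes lay below 0. At an unadjusted p under 0.05 in limma 5 of the 14 were lower, beside 1.68% of all genes. Creld2, Dnajb11, Manf and Hyou1 differed by -0.59, -0.53, -0.46 and -0.53, and none passed at 5% FDR. Control replicate 3 had the highest mean deviation of this list, 0.479, and was among the lowest arrays for the cytosolic synthetases, at -0.096. Without that array 11 of the 14 ER genes lay below 0, with a median of -0.14. The difference between the lists was not tested. Of 7 genes for mTORC1 and MYC inputs 4 lay below 0 (median -0.01), with Rptor at -0.12, Mtor at -0.10, Max at -0.09 and Myc at 0.21 (standard error 0.50). The sign of Myc turned with control replicate 1, control replicate 3 or miR-143DOX replicate 3 left out, to between -0.31 and -0.06.

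**Figure D4:**
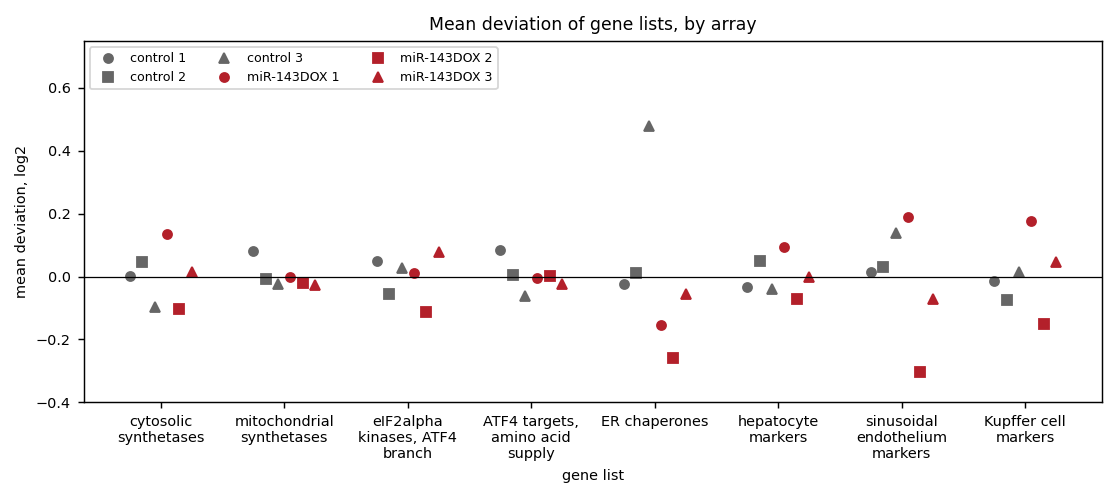
Mean log2 deviation of the genes of each list from their means over the 6 arrays, with 1 point per array (grey control, red miR-143DOX). Both synthetase lists overlap between the groups, and control replicate 3 stands apart for ER chaperones at 0.479.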

How the data were processed

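Values were the log2 intensities that the authors deposited for 234873 probe sets on 6 arrays, taken as log2 from their span of 1.60 to 15.2. Per the submitters' processing notes Partek was used (no version given). The background correction and normalization behind them are not given in the sources used here. Since percentiles of the arrays differed by up to 0.135, over an allowed 0.1, values were quantile normalized. The 212097 probe sets with 1 gene symbol in the platform annotation gave 20416 genes by their mean, and the 25% dimmest (under 5.06) were left out. No detection call was used, and the number of arrays limits the precision.

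Differences were tested in R 4.3.3 by limma 3.58.1 (group only, two-sided, Benjamini-Hochberg over all 15312 genes), after tests on simulated data. Labels call the replicates biological. The members, the lists and the rule for named genes (all members and up to 4 genes with the smallest p of each list) were chosen with earlier results of these data known. Of 147 list entries 140 were used, 3 under another symbol. Marker lists for stellate cells, cholangiocytes, lymphocytes, neutrophils and erythroid cells were also measured, with median differences of 0.044, 0.1, 0.095, 0.034 and 0.009 over 9, 5, 4, 1 and 2 tested genes.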

Additional observations from a re-analysis of the deposited data

How the results depend on the processing

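Across 18 other settings (other scalings, filters, summaries of probe sets and variance models, the replicate block and each array left out), 0 members passed 5% FDR, with a smallest adjusted p of 0.676. The count of members lower at an unadjusted p under 0.05 was 1 in place of 0 with array weights, when probe sets were summarised by their median, and without control replicate 1, and between 0 and 1 over all arrays left out. That gene was Ears2 each time. With the replicate block that count was 0, and 0 members were higher. Ears2 was -0.27 with and without the block. The labels tie no animals by these numbers, so the arrays were taken as unpaired. Deviations of arrays with the same number correlated at 0.107, 0.047 and 0.296. Arrays with different numbers were not set beside them, so these values cannot decide whether the arrays are paired. Only 10 of 35 members kept their sign in every setting, 4 below and 6 above 0. Ears2 turned to 0.03 with its brightest probe set. Median polish and the removal of a Tars probe set were added after seeing the data. Depth is not defined for arrays, and low intensities cannot be told from background.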
